A study of Mus musculus with 29 samples.

Results

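Chemokines and their receptors were followed through the livers of mice whose common bile duct had been ligated. The family was taken as every gene named as a ligand (Ccl, Cxcl, Cx3cl, Xcl), a signalling receptor (Ccr, Cxcr, Cx3cr, Xcr) or an atypical receptor (Ackr) followed by a number, where a row of the array carries that symbol alone. This gave 55 of 22180 genes, made up of 34 ligands, 17 receptors and 4 atypical receptors. Of the 55, 38 passed the minimum set for testing, which asks for a log2 level over 5 in 3 or more of the 29 arrays, as did 14699 of all genes. These 38 were 26 ligands, 9 receptors and 3 atypical receptors. Ccl19, Ccl21a and Ccl27b were not analysed here because they share array rows with other genes.

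The animals were male C57BL/6N mice 8 to 10 weeks old, each marked wt in its title, and every one had surgery and standard diet. Bile duct ligation (BDL) closes the extrahepatic bile duct, so that bile backs up into the liver. Ligated livers were taken at day 1, day 3, day 7 and day 21, with 5 arrays at each day. Sham-operated livers were taken at day 1 (3 arrays), day 3 (2 arrays) and day 7 (4 arrays). No sham array of day 21 was used, so the day 21 livers were set against the day 7 shams, and there the effect of ligation and that of time after surgery cannot be told apart. The comparisons at day 7 and day 21 share those 4 sham arrays. The RNA came from whole liver, and each array holds 1 animal's liver as its title numbers it.

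Chemokines are small secreted proteins that draw leukocytes along a gradient by binding receptors coupled to inhibitory G proteins on the cells. Broadly, Ccr2 and its ligand Ccl2 bring monocytes out of the blood, Cxcr2 and its ligands Cxcl1, Cxcl2 and Cxcl5 bring neutrophils, and Cxcr3 with Cxcl9, Cxcl10 and Cxcl11 brings activated T and NK cells. Cxcl12 with Cxcr4, and Cxcl13 with Cxcr5, hold cells in place in resting tissue, while atypical receptors bind chemokines without calling G proteins and remove them. In the liver these ligands can come from hepatocytes, bile duct cells, Kupffer cells, endothelium and stellate cells, and in bulk tissue a change in the number of such cells and a change in RNA per cell cannot be told apart.

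The promoters of 4 ligands of the CXC branch are shown because their genes lie close together and their RNA did not all pass the test on the same days. Cxcl2 passed at day 1 alone, Cxcl9 at day 7 alone, and Cxcl1 and Cxcl10 at both days. Cxcl1 and Cxcl2 are neighbours on mouse chromosome 5, and Cxcl9 and Cxcl10 lie further along it with 1 coding gene between them. Each line gives bases -150 to -1 upstream of the RefSeq transcription start (GRCm38.p6), 5′ to 3′ along the gene, in lower case, with matches to the kappaB consensus (the site bound by NF-kappaB) in capitals. The windows are chr5:90891095-90891244 (plus strand) for Cxcl1, chr5:90903749-90903898 (plus strand) for Cxcl2, chr5:92348890-92349039 (minus strand) for Cxcl10 and chr5:92328080-92328229 (minus strand) for Cxcl9.
Cxcl1: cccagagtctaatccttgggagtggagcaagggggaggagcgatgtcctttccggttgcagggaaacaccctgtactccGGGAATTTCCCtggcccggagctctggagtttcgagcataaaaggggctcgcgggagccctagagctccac
Cxcl2: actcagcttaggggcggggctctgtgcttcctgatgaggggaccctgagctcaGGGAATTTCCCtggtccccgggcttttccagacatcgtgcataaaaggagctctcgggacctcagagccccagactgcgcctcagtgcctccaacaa
Cxcl10: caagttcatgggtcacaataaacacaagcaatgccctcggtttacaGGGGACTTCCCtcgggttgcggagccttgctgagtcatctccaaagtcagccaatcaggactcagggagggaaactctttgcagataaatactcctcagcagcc
Cxcl9: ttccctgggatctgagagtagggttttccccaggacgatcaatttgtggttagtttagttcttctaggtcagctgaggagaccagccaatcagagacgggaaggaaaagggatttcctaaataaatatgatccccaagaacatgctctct
Cxcl1 and Cxcl2 each hold the consensus on both strands at overlapping positions, starting at -71 and -97. Cxcl10 holds a match on the strand of the gene at -104, an overlapping match at -103 that fits the consensus on both strands, and a further match at -159. The window of Cxcl9 holds no match. Over the 250 bases upstream, searched on both strands, the consensus was found in 11 of 45 promoters of the family (24.4%) and in 2382 of 32851 RefSeq promoters (7.25%). Among the other tested members, matches stood at -35 in Ccl9, at -74 in Ccr1, at -80 in Ccl20 and at -224 and -64 in Ackr2, of which Ccl20 and Ackr2 passed the test on no day. Cxcl3, Ccl1, Ccr3 and Ccr6, which did not reach the minimum, hold the consensus too. The core of the interferon-stimulated response element (GAAA, any 2 bases, GAAA, on either strand) was found in 2 of the 45 (4.44%), those of Cxcl10 at -213 and Cxcl14 at -172, and in 978 of all promoters (2.98%). RefSeq entries were matched for 41 of the 55 genes and for 26 of the 38 tested. Ccl2 had no entry, so its promoter was not searched. A match is a stretch of letters and shows no binding.

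The arrays were comparable in level, with medians from 4.90 to 5.13. Of the day 1 arrays, sham replicates 1 and 3 and BDL replicates 2 and 3 stood apart from the other 25, with a smaller spread of values (SD 1.55 to 1.58 against 1.64 to 1.70) and a higher mean over 73 small nucleolar RNA genes (8.88 to 9.33 against 7.62 to 8.41). They fall in both day 1 groups, and day 1 calls between BDL and sham lost without them or within them are given as such. Hepatocyte markers averaged 12.46 to 12.74 in every array. Of 7 tested, 1 fell at each of days 1, 3 and 7, and 1 rose at day 21. After ligation, marker lists of other cell types moved too. Of 13 markers of monocyte-derived macrophages, 6 rose at day 1, 7 at day 3, 12 at day 7 and 13 at day 21. Of 7 cholangiocyte markers, 2, 6, 7 and 7 rose at those days, and of 8 Kupffer cell markers, 1, 1, 7 and 7 rose while 2 fell at day 1. Of 8 stellate cell and matrix markers, 1 fell at day 1, and 2, 6 and 7 rose at days 3, 7 and 21, with list means of 6.80 to 8.43 in day 7 shams and 8.18 to 8.64 in day 7 BDL livers. The part of these cells in the results was not tested.

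Ligation raised more of the family than it lowered on each day. Ccl2, which draws monocytes, rose 7.23-fold at day 1, and Cxcl10 and Cxcl1 rose beside it. By day 7 the ligands Cxcl16, Ccl24 and Cxcl9 had joined and the receptors Ccr1, Ccr2, Cx3cr1, Cxcr2 and Cxcr4 were all higher. Cxcl12 was the 1 member that fell at day 1, and Cxcl13 fell at days 7 and 21. At day 1, 13 of the 38 tested members rose and 1 fell (limma, Benjamini-Hochberg adjusted p under 0.05). Of all tested genes 13.3% changed on that day, 8.52% higher and 4.8% lower. At day 3, 8 members changed, each upward, against 10.2% of all genes, 6.47% higher and 3.69% lower. At day 7, 16 rose and 2 fell, against 19.2% of all genes, 14.2% higher and 4.97% lower. At day 21, 15 rose and 2 fell, against 25.2%, 17.3% higher and 7.9% lower. The median log2 difference of the tested members was 0.17, 0.06, 0.22 and 0.20 on the 4 days, and that of all tested genes was 0.02, 0.02, 0.03 and 0.02. A member that passes the minimum only because it is high after ligation had to differ. Such are Ccl3, Cxcl5 and Ccr1, which exceeded 5 in 0 sham arrays and in 20, 13 and 10 BDL arrays, and Ccr2, which did so in 1 sham array and 19 BDL arrays. At day 1 the count of 14 changed members was 7 without the 4 arrays that stand apart, and 6 within them. Ccl2, Ccl9, Cxcl1 and Cxcl12 kept their call both ways, Ccr1, Cxcl2 and Cxcl10 without the 4 arrays only, and Ccl6 and Cxcl14 within them only. Ccl3, Ccl4, Ccl7, Ccr2 and Cxcr4 lost it both ways. At day 3 the sham group has 2 arrays, and leaving out replicate 1 or replicate 2 left 3 or 4 of the 8 calls.

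**Figure D1:**
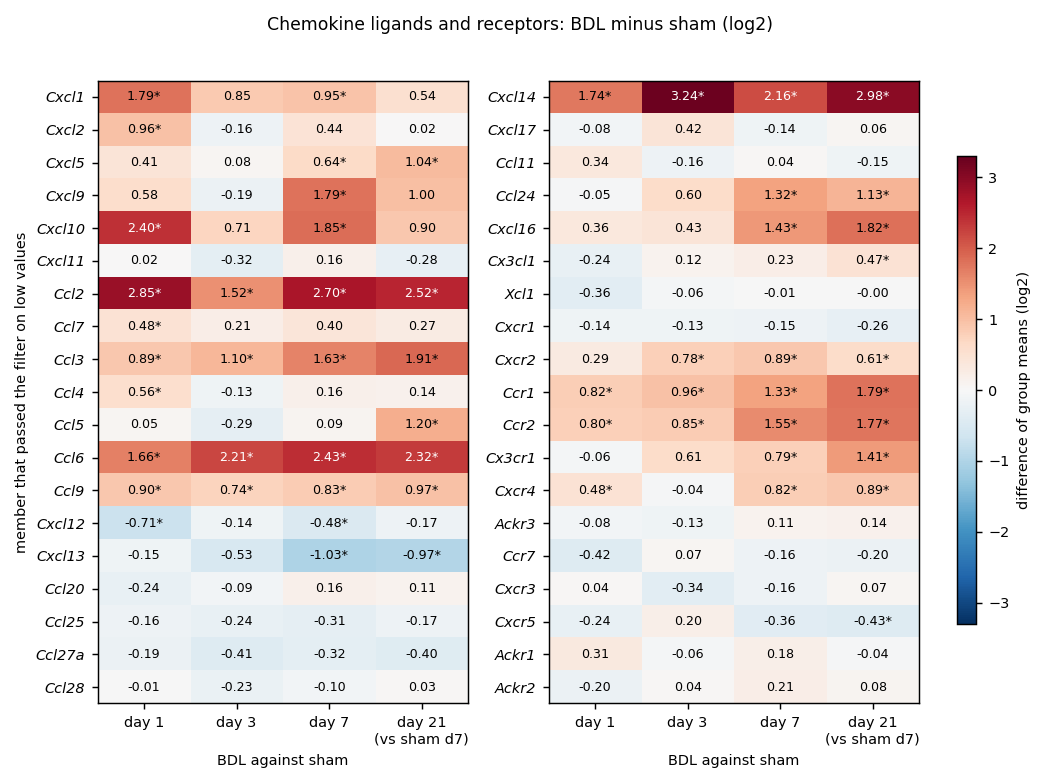
Log2 difference of each tested member between BDL and sham livers (columns: day 1, day 3, day 7, and day 21 against sham day 7), with colour giving the size and direction and an asterisk an adjusted p under 0.05. The asterisks number 14, 8, 18 and 17 from the day 1 to the day 21 column, and Ccl2, Ccl6 and Cxcl14 carry some of the strongest red.

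Ccl2, the main attractant of Ccr2-bearing monocytes, stood far above sham on every day. In sham livers it read log2 5.28, 5.47 and 5.42 at day 1, 5.29 and 5.71 at day 3, and 5.79, 5.24, 5.63 and 5.74 at day 7. In BDL livers it read 8.14, 7.74, 7.29, 8.91 and 9.14 at day 1, 7.00, 7.43, 6.75, 7.18 and 6.72 at day 3, 7.85, 8.41, 8.14, 8.18 and 8.92 at day 7, and 8.21, 8.55, 7.82, 8.19 and 7.83 at day 21. No BDL array of any day reached down to the highest sham array. The log2 difference was 2.85 ± 0.29 (SE) at day 1 (adjusted p = 7.75e-08), 1.52 ± 0.33 at day 3 (adjusted p = 0.00275), 2.70 ± 0.26 at day 7 (adjusted p = 2.76e-08) and 2.52 ± 0.26 at day 21 (adjusted p = 3.53e-08). Its course dipped in between. Among ligated livers, Ccl2 fell by 1.23 ± 0.25 from day 1 to day 3 (adjusted p = 0.00137) and rose by 1.28 ± 0.25 from day 3 to day 7 (adjusted p = 0.00205). With day 1 limited to the 4 arrays that stand apart, the day 1 to day 3 difference was -0.50 (adjusted p = 0.122). All 4 are day 1 arrays, so there their difference from other arrays and the day cannot be told apart. The difference at day 3 rests on 2 sham arrays, and without replicate 1 its adjusted p was 0.075.

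Ccl7, the neighbour of Ccl2 on chromosome 11 and a ligand of Ccr1 and Ccr2, moved far less. It ranged from 6.08 to 6.96 in sham arrays and from 6.57 to 7.61 in BDL arrays, so the groups overlapped. It was 0.48 ± 0.16 higher at day 1 (adjusted p = 0.0414), a call lost in 5 of 8 fits that left out 1 array (adjusted p up to 0.215, without the third sham), and 0.40 ± 0.15 higher at day 7 (adjusted p = 0.0564). The day 1 difference was 0.71 without the 4 arrays (adjusted p = 0.0728) and 0.17 within them (adjusted p = 0.672). Ccl11, the eosinophil attractant that follows Ccl7 on the chromosome, passed the test on no day, with differences from -0.16 to 0.34. Of the other genes of that cluster, Ccl12, Ccl8 and Ccl1 did not reach the minimum.

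The neutrophil attractants Cxcl1 and Cxcl2 were high at day 1 and then dropped. Cxcl1 read 7.11, 7.74 and 9.86 in sham livers at day 1, 6.74 and 7.30 at day 3, and 7.04, 7.70, 7.99 and 7.11 at day 7. In BDL livers it read 9.80, 10.11, 10.54, 9.96 and 9.73 at day 1, 7.87, 8.23, 8.18, 7.85 and 7.24 at day 3, 8.20, 8.88, 8.16, 8.56 and 8.26 at day 7, and 8.19, 8.35, 7.83, 7.80 and 7.82 at day 21. The third sham array of day 1 lay within the BDL range of that day, and the other two lay below it. Cxcl1 was 1.79 ± 0.36 higher at day 1 (adjusted p = 0.0011), but with only the day 1 arrays in the fit the adjusted p was 0.0551. It then fell by 2.16 ± 0.31 from day 1 to day 3 among ligated livers (adjusted p = 3.91e-05). At day 7 it was 0.95 ± 0.33 higher (adjusted p = 0.0432), a call lost in 7 of 9 fits that left out 1 array (adjusted p up to 0.13, without the first sham), and at day 21 the difference was 0.54 (adjusted p = 0.26). Without the third day 1 sham the day 7 effect differed from the day 1 effect by -1.65 (adjusted p = 0.00863), while with it the difference of -0.84 did not pass (adjusted p = 0.408).

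Cxcl2, whose promoter holds the same kappaB letters at -97, read 5.65, 5.39 and 5.73 in the day 1 shams against 6.79, 5.80, 6.08, 6.82 and 7.25 in the day 1 BDL livers. All 5 BDL arrays lay above the 3 shams, the lowest by little. The difference was 0.96 ± 0.23 (adjusted p = 0.00462), and within the 4 arrays that stand apart it was 0.25 (adjusted p = 0.56). From day 1 to day 3 Cxcl2 fell by 1.11 ± 0.20 (adjusted p = 0.000351), and at days 3, 7 and 21 its differences from sham were -0.16, 0.44 (adjusted p = 0.146, and 0.0171 with only the day 7 arrays in the fit) and 0.02. Cxcl5, a further Cxcr2 ligand, took the other course. Its sham arrays ran from 4.28 to 4.95, a level that cannot be told from background, and its BDL arrays read 5.07, 5.63, 5.03, 5.12 and 5.25 at day 7 and 5.41, 5.80, 5.45, 5.96 and 5.51 at day 21. It was 0.64 ± 0.15 higher at day 7 (adjusted p = 0.00278) and 1.04 ± 0.15 at day 21 (adjusted p = 5.16e-06). Of 10 neutrophil markers tested, 6 rose at day 1, 2 at day 3, 4 at day 7 and 5 at day 21, with list means of 4.64 to 4.97 in sham arrays and 5.30 to 5.99 in BDL arrays of day 1. Of the same list, Ly6g and Camp did not reach the minimum, and the part of these markers in the result was not tested.

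**Figure D2:**
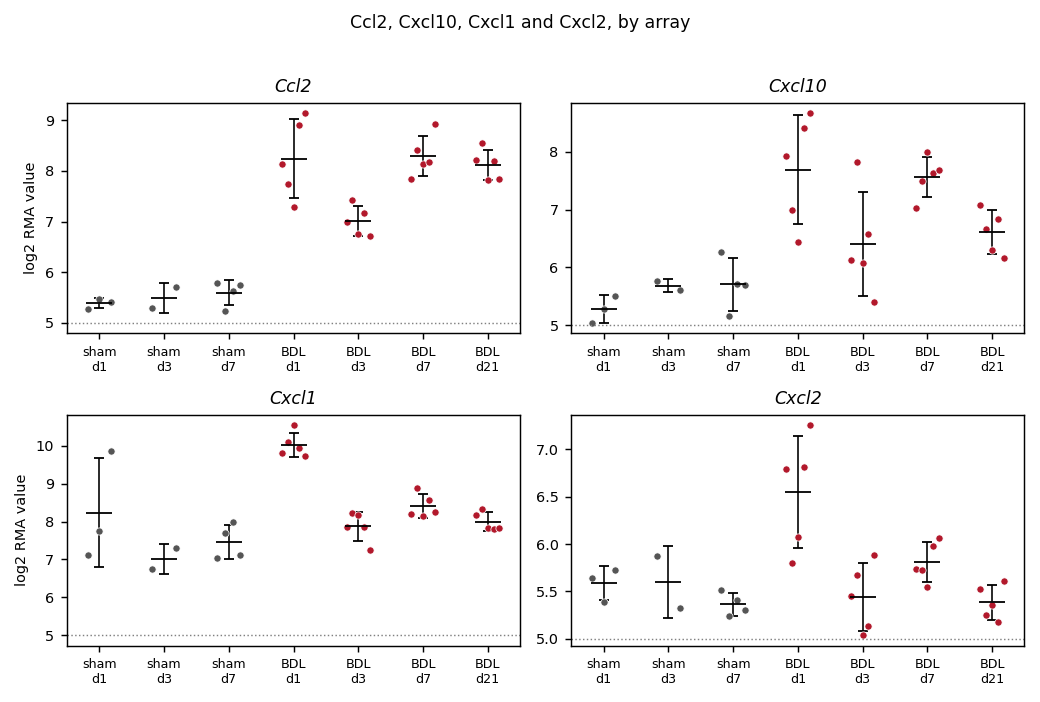
Log2 values (y axis) of Ccl2, Cxcl10, Cxcl1 and Cxcl2 in each array by group (x axis), with sham in grey, BDL in red, bars for mean ± SD and a dotted line at 5. Ccl2 in BDL arrays of day 1 runs from 7.29 to 9.14, falls to between 6.72 and 7.43 at day 3 and is back above 7.8 at day 7, while Cxcl1 and Cxcl2 are highest at day 1.

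Of the Cxcr3 ligands, Cxcl10 rose at days 1 and 7, Cxcl9 rose at day 7, and Cxcl11 passed the test on no day against sham. Cxcl10, the interferon-induced ligand whose promoter holds both motifs, read 5.04, 5.29 and 5.51 in shams of day 1, 5.77 and 5.61 at day 3, and 6.26, 5.15, 5.72 and 5.70 at day 7. After ligation it read 7.93, 6.99, 6.44, 8.40 and 8.66 at day 1, 6.13, 7.82, 6.08, 6.57 and 5.41 at day 3, 7.03, 7.49, 7.99, 7.63 and 7.68 at day 7, and 7.08, 6.67, 6.30, 6.83 and 6.17 at day 21. The BDL and sham arrays were apart at days 1 and 7 and overlapped at days 3 and 21. Cxcl10 was 2.40 ± 0.41 higher at day 1 (adjusted p = 0.000183) and 1.85 ± 0.38 at day 7 (adjusted p = 0.000622). Its differences of 0.71 ± 0.47 at day 3 (adjusted p = 0.399) and 0.90 ± 0.38 at day 21 (adjusted p = 0.0824) did not pass. With all 9 shams as controls they were 0.84 (adjusted p = 0.0472) and 1.05 (adjusted p = 0.00879), and with only the groups compared in the fit the day 21 adjusted p was 0.01. Within the 4 day 1 arrays that stand apart it was 1.44 higher at day 1 (adjusted p = 0.061). Its fall from day 1 to day 3 was -1.28 (adjusted p = 0.013), and -0.31 with day 1 limited to those arrays (adjusted p = 0.583). In that limited fit the difference of the 4 arrays and the day cannot be told apart.

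Cxcl9, the interferon gamma-induced ligand that lies near it on chromosome 5, passed the test at day 7 alone. The shams read 7.10, 7.70 and 7.35 at day 1, 7.39 and 7.76 at day 3, and 8.57, 7.42, 7.42 and 7.39 at day 7. The BDL livers read 8.59, 7.39, 7.11, 8.41 and 8.30 at day 1, 7.92, 9.01, 6.79, 6.83 and 6.39 at day 3, 9.25, 9.46, 9.88, 8.68 and 10.17 at day 7, and 9.03, 8.90, 8.03, 9.06 and 8.47 at day 21. At day 7 every BDL array exceeded every sham, although the first day 7 sham came close. The day 7 difference was 1.79 ± 0.40 (adjusted p = 0.00173), and from day 3 to day 7 Cxcl9 rose by 2.10 ± 0.38 (adjusted p = 0.00111). At day 21 it was 1.00 ± 0.40 higher (adjusted p = 0.0696). Without the first sham of day 7 that became 1.29 (adjusted p = 0.026), and with all 9 shams as controls 1.13 (adjusted p = 0.00724). Cxcl11 ranged from 5.98 to 7.07 in shams and differed by -0.32 to 0.16 from them, with adjusted p above the threshold on each day. Cxcr3 itself lay between 4.60 and 5.68 in every array and passed on no day.

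The Ccr1 ligands Ccl6, Ccl9 and Ccl3, which lie in a row beside Ccl5 and Ccl4 on chromosome 11, were higher on each day. Ccl6 read 5.50, 6.01 and 5.79 in the day 1 shams, 6.02 and 6.10 at day 3, and 5.86, 6.05, 5.97 and 5.27 at day 7. After ligation it read 7.14, 7.30, 7.76, 7.42 and 7.53 at day 1, 7.63, 7.57, 8.39, 8.68 and 9.08 at day 3, 8.12, 7.68, 8.15, 8.58 and 8.53 at day 7, and 7.74, 8.12, 8.67, 8.20 and 7.80 at day 21. Each BDL array exceeded the highest sham array by at least 1 log2 unit. Ccl6 was 1.66 ± 0.27 higher at day 1 (adjusted p = 9.99e-05), 2.21 ± 0.31 at day 3 (adjusted p = 1.91e-05), 2.43 ± 0.25 at day 7 (adjusted p = 6.07e-08) and 2.32 ± 0.25 at day 21 (adjusted p = 4.83e-08). Without the 4 day 1 arrays that stand apart, the day 1 difference was 1.35 (adjusted p = 0.0947).

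Ccl9 was already high in sham livers, at 9.89 to 10.63, and rose by 0.90 ± 0.15, 0.74 ± 0.17, 0.83 ± 0.14 and 0.97 ± 0.14 on the 4 days (adjusted p = 0.000136, 0.00498, 5.67e-05 and 3.7e-06). Without either sham of day 3 its day 3 adjusted p was 0.056 or 0.0583. Its BDL arrays ran from 10.46 to 11.39, overlapping the shams through the fifth array of day 3 alone. Ccl3, a ligand of Ccr1 made by macrophages, lay between 4.05 and 4.73 in shams, a level that cannot be told from background. It read 5.65, 5.14, 5.14, 5.34 and 6.01 in BDL livers at day 1, 5.05, 5.78, 5.63, 5.35 and 5.33 at day 3, 6.01, 5.95, 6.15, 6.18 and 6.08 at day 7, and 6.36, 6.26, 6.01, 7.00 and 6.12 at day 21. The differences were 0.89 ± 0.20, 1.10 ± 0.23, 1.63 ± 0.19 and 1.91 ± 0.19 (adjusted p = 0.00381, 0.00244, 3.75e-07 and 1.32e-08), and each is a difference from a group near background. The day 1 adjusted p was 0.0851 without the 4 arrays that stand apart and 0.127 within them, and without the second sham of day 3 the day 3 adjusted p was 0.125.

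Ccl4, next to Ccl3 and a further macrophage product, was 0.56 ± 0.17 higher at day 1 (adjusted p = 0.0252). The shams there read 4.85, 5.52 and 5.56 against 5.80 to 5.95 in BDL arrays. Without the first sham the difference was 0.33 (adjusted p = 0.282), without the 4 arrays that stand apart it was 0.39 (adjusted p = 0.478) and within them 0.61 (adjusted p = 0.12), and on the later days it lay between -0.13 and 0.16. Ccl5, a T and NK cell product that acts on Ccr1 and other receptors, passed the test at day 21 alone. It read 6.78, 8.01, 6.47 and 6.49 in the day 7 shams, 6.72, 7.32, 7.13, 7.04 and 6.92 in BDL livers at day 7, and 7.58, 8.22, 7.62, 9.56 and 7.69 at day 21. Only the second sham reached into the day 21 range, and the fourth day 21 array was the highest. The day 21 difference was 1.20 ± 0.32 (adjusted p = 0.00648), and that at day 7 was 0.09 (adjusted p = 0.891). Against day 7 BDL livers, Ccl5 at day 21 was 1.11 ± 0.31 higher (adjusted p = 0.0949). Of 8 T cell markers tested, 2 fell at day 7 (Cd4 and Cd5), 2 fell at day 21 and the others did not pass. Of 7 NK cell markers listed, only 2 reached the minimum, Nkg7 and Prf1. They differed by 0.07 ± 0.21 and 0.00 ± 0.11 at day 21. The part of either cell type in the Ccl5 values was not tested.

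Cxcl14, an epithelial chemokine whose receptor is not settled, rose strongly on all 4 days. It read 7.40, 8.38 and 7.30 in shams of day 1, 6.68 and 6.82 at day 3, and 7.10, 7.77, 7.39 and 6.42 at day 7. After ligation it read 8.35, 9.28, 9.81, 9.49 and 10.25 at day 1, 9.37, 9.29, 10.34, 10.41 and 10.56 at day 3, 9.04, 9.15, 8.96, 9.51 and 9.97 at day 7, and 9.26, 10.38, 10.73, 10.17 and 10.20 at day 21. The sole overlap was at day 1, where the lowest BDL array lay just under the highest sham. Cxcl14 was 1.74 ± 0.37 higher at day 1 (adjusted p = 0.00199), 3.24 ± 0.43 at day 3 (adjusted p = 9.14e-06, a 9.45-fold difference), 2.16 ± 0.34 at day 7 (adjusted p = 3.36e-05) and 2.98 ± 0.34 at day 21 (adjusted p = 1.58e-07). Without the 4 day 1 arrays that stand apart the day 1 difference was 0.98 (adjusted p = 0.446).

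**Figure D3:**
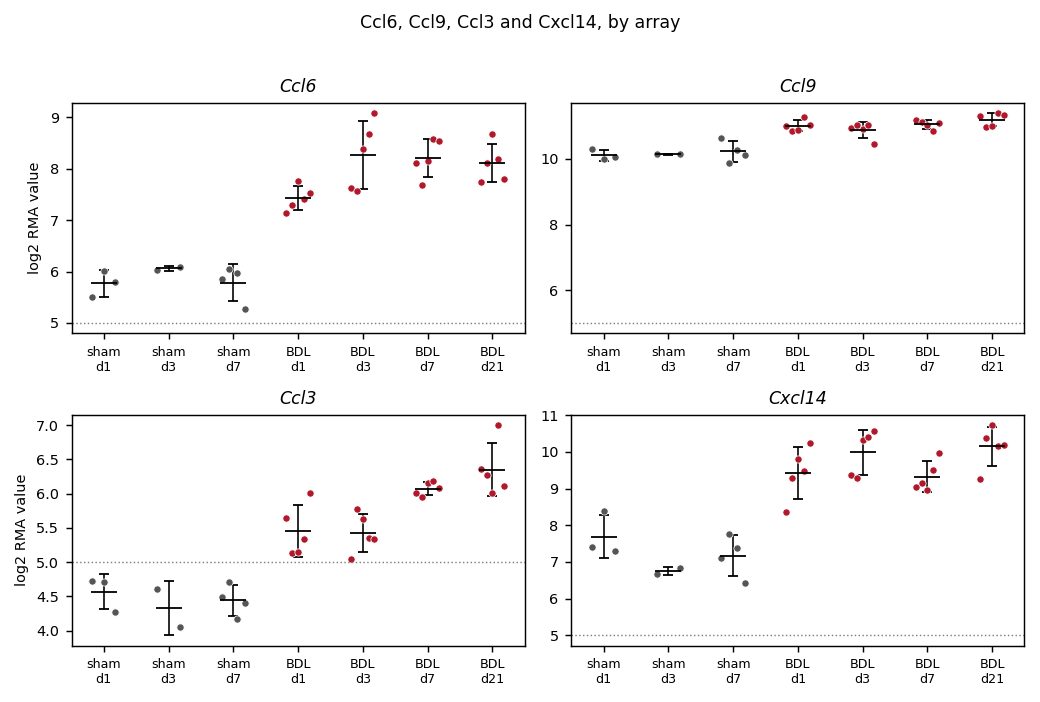
Log2 values (y axis) of Ccl6, Ccl9, Ccl3 and Cxcl14 in each array by group (x axis), with sham in grey, BDL in red, bars for mean ± SD and a dotted line at 5. All BDL arrays of Ccl6 lie at 7.14 or above and all shams at 6.10 or below, while Ccl3 in shams lies under the dotted line.

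Cxcl16, the membrane-bound ligand of Cxcr6 that also takes up oxidised lipoprotein, rose at days 7 and 21. It read 5.60, 6.89 and 6.20 in the day 1 shams, 6.72 and 6.76 at day 3, and 7.13, 6.91, 6.82 and 6.76 at day 7. After ligation it read 6.62, 6.05, 6.03, 7.05 and 7.21 at day 1, 7.15, 7.33, 7.26, 7.24 and 6.85 at day 3, 8.08, 8.15, 8.45, 8.41 and 8.61 at day 7, and 8.44, 8.85, 8.56, 9.06 and 8.73 at day 21. The groups overlapped at day 1, and at days 7 and 21 every BDL array lay well above every sham. Its differences were 0.36 ± 0.24 at day 1 (adjusted p = 0.359), 0.43 ± 0.27 at day 3 (adjusted p = 0.376), 1.43 ± 0.22 at day 7 (adjusted p = 1.68e-05) and 1.82 ± 0.22 at day 21 (adjusted p = 2.51e-07). Without the second sham of day 1 the day 1 difference was 0.69 (adjusted p = 0.0461). From day 3 to day 7 it rose by 1.18 ± 0.20 among ligated livers (adjusted p = 0.000893). The day 7 difference exceeded the day 1 difference by 1.07 ± 0.32, which lay just outside the threshold (adjusted p = 0.0525). It passed with the 4 arrays as a model term (1.33, adjusted p = 0.000481), without them (1.37, adjusted p = 0.0101), within them (1.30, adjusted p = 0.00475), after cyclic loess (adjusted p = 0.028) and with a minimum of log2 6 (adjusted p = 0.0448). Cx3cl1, the other membrane-bound ligand, was 0.47 ± 0.13 higher at day 21 (adjusted p = 0.00902) and did not pass before, with 5.41 to 5.56 in the day 7 shams against 5.67 to 6.17 in the day 21 livers.

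Ccl24, an eosinophil attractant acting through Ccr3 and made by macrophages, also came up after day 1. In shams it read 5.95, 6.15 and 5.84 at day 1, 6.31 and 6.08 at day 3, and 5.75, 6.23, 5.97 and 5.93 at day 7. In BDL livers it read 5.64, 6.22, 5.93, 5.83 and 6.05 at day 1, 6.31, 6.71, 6.84, 7.25 and 6.88 at day 3, 7.21, 6.51, 7.76, 7.08 and 7.88 at day 7, and 6.92, 6.61, 7.28, 7.51 and 7.16 at day 21. Day 1 BDL arrays lay among the shams, and those of days 7 and 21 lay above them. The differences were -0.05 ± 0.23, 0.60 ± 0.26, 1.32 ± 0.21 and 1.13 ± 0.21 on the 4 days (adjusted p = 0.931, 0.161, 3.86e-05 and 0.000171). The effect of ligation at day 7 exceeded that at day 1 by 1.36 ± 0.31 (adjusted p = 0.0114), a call lost both without the 4 arrays (1.63, adjusted p = 0.0568) and within them (1.14, adjusted p = 0.0966). With all 9 shams as controls the day 3 difference was 0.77 (adjusted p = 0.00122). The test between those effects was passed by 2 members, Ccl24 and Cx3cr1, both upward, and by 4.33% of all genes, 3.48% upward and 0.857% downward.

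Cxcl12 and Cxcl13, chemokines of resting tissue, were the ligands that fell. Cxcl12, the Cxcr4 ligand made by stromal and endothelial cells, read 10.26, 10.29 and 10.50 in day 1 shams against 9.70, 9.64, 9.70, 9.63 and 9.54 after ligation. At day 7 it read 10.08, 10.16, 9.88 and 10.19 in shams against 9.67, 9.54, 9.67, 9.80 and 9.35 in BDL livers. The groups were apart on both days. Cxcl12 fell by 0.71 ± 0.10 at day 1 (adjusted p = 2.56e-05) and by 0.48 ± 0.10 at day 7 (adjusted p = 0.000543), while the differences of -0.14 at day 3 (adjusted p = 0.537) and -0.17 at day 21 (adjusted p = 0.217) did not pass. Against all 9 shams these were -0.33 (adjusted p = 0.00791) and -0.23 (adjusted p = 0.0496). Of 7 sinusoidal endothelial markers, 5 fell at day 1, 2 at day 3, 0 at day 7 and 2 at day 21. At each of days 3 and 21, 1 marker of the list rose. The list mean ran from 7.74 to 8.58 in day 1 shams and from 7.11 to 7.72 in day 1 BDL livers. The part of these markers in the change of Cxcl12 was not tested.

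Cxcl13, which guides B cells through Cxcr5, read 6.27, 7.82, 6.98 and 6.93 in day 7 shams, 5.70, 6.46, 5.88, 6.32 and 5.48 in BDL livers at day 7 and 5.49, 6.34, 6.32, 6.15 and 5.82 at day 21. The first sham lay within the BDL range and the other 3 above it. It fell by 1.03 ± 0.35 at day 7 (adjusted p = 0.0352) and by 0.97 ± 0.35 at day 21 (adjusted p = 0.0382). Each call was lost in 6 of 9 fits that left out 1 array, with adjusted p of 0.17 and 0.182 without the second sham. Cxcr5 fell by 0.43 ± 0.13 at day 21 (adjusted p = 0.0172) and was 0.36 ± 0.13 lower at day 7 (adjusted p = 0.0556). The day 21 adjusted p of Cxcr5 was 0.108 without that sham and 0.0614 without the second BDL array. With all 9 shams as controls its day 21 difference was -0.24 (adjusted p = 0.154). With only the groups compared in the fit the adjusted p was 0.0509. Of 4 B cell markers tested, 1 fell at each of those days, Cd79a at day 7, and its part in the result was not tested. Ccl20, Ccl25, Ccl27a, Ccl28, Cxcl17 and Xcl1, attractants of mucosal, skin or lymphoid cells, passed on no day, with the lowest adjusted p of Ccl25 at 0.086 and of Xcl1 at 0.0936. At day 7 Ccl25 was at -0.37 with all 9 shams as controls (adjusted p = 0.00657).

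**Figure D4:**
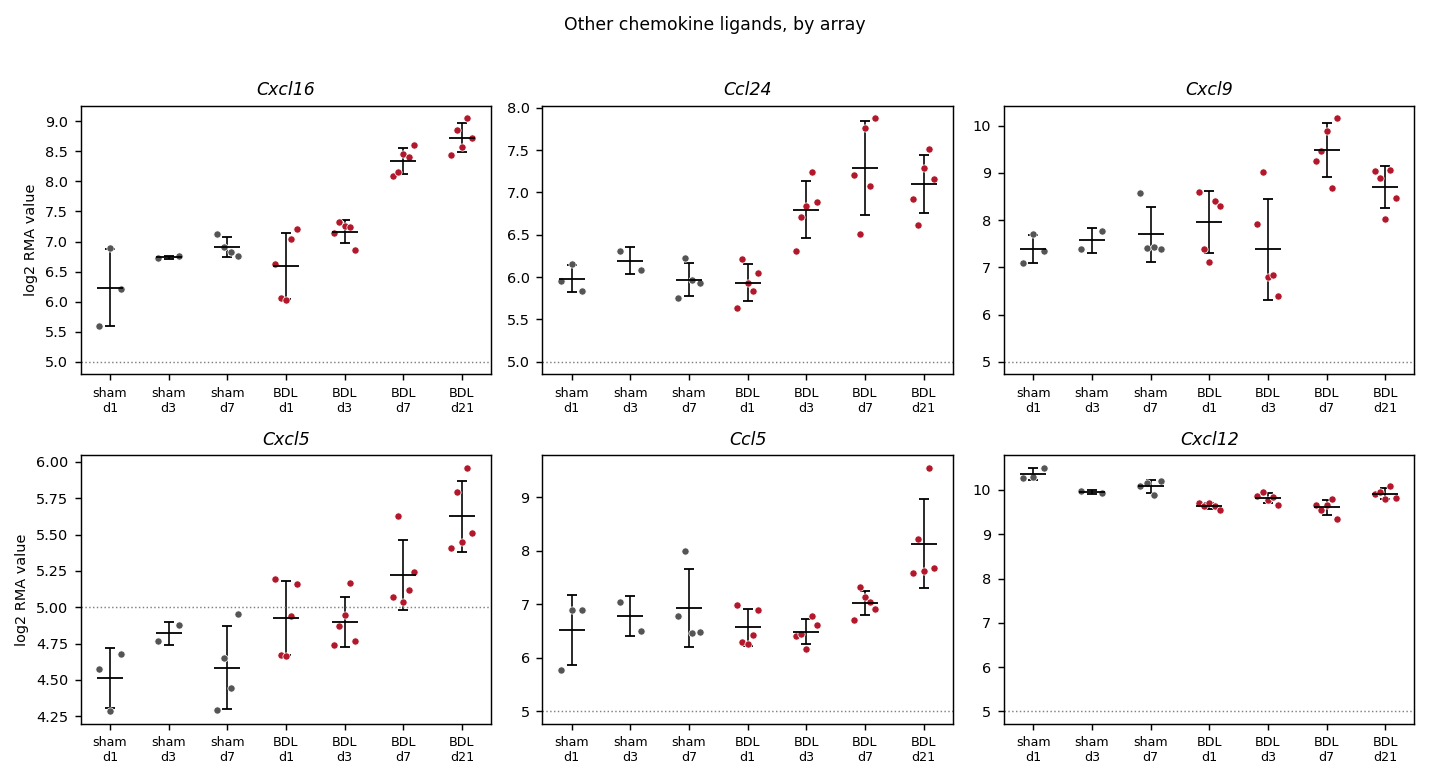
Log2 values (y axis) of Cxcl16, Ccl24, Cxcl9, Cxcl5, Ccl5 and Cxcl12 in each array by group (x axis), with sham in grey, BDL in red, bars for mean ± SD and a dotted line at 5. Cxcl16 reaches 8.08 to 8.61 at day 7, Ccl5 rises at day 21 with 1 array at 9.56, and Cxcl12 after ligation sits below the shams at days 1 and 7.

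Of the 12 receptors tested, atypical ones included, 3 rose at day 1, 3 at day 3, 5 at day 7 and 5 at day 21, when Cxcr5 fell. Of all genes 8.52%, 6.47%, 14.2% and 17.3% rose on those days, and 7.9% fell at day 21. Ccr1 and Ccr2 are in each of these counts. They exceeded 5 in 0 and 1 sham arrays and in 10 and 19 BDL arrays, so their calls follow in part from the minimum. Ccr2, the Ccl2 receptor of inflammatory monocytes, read 4.14, 4.51 and 4.40 in shams of day 1, 4.54 and 4.64 at day 3, and 5.06, 4.85, 4.51 and 4.42 at day 7. In BDL livers it read 5.37, 4.62, 5.03, 5.23 and 5.49 at day 1, 5.41, 5.33, 5.24, 5.80 and 5.42 at day 3, 6.37, 6.38, 5.80, 6.55 and 6.21 at day 7, and 6.02, 6.44, 6.48, 6.90 and 6.53 at day 21. On each day the BDL arrays lay above the shams they were set against, whose mean level cannot be told from background. The differences were 0.80 ± 0.19, 0.85 ± 0.22, 1.55 ± 0.18 and 1.77 ± 0.18 (adjusted p = 0.0055, 0.0121, 3.28e-07 and 1.82e-08), and from day 3 to day 7 Ccr2 rose by 0.83 ± 0.17 (adjusted p = 0.00286). The day 1 adjusted p was 0.0914 without the 4 arrays that stand apart and 0.187 within them, and without either sham of day 3 the day 3 adjusted p was 0.114 or 0.0804.

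Ccr1, the receptor of Ccl3, Ccl6 and Ccl9 on myeloid cells, did not exceed 4.01 in any sham array. It read 5.03, 4.68, 3.83, 4.06 and 4.52 in BDL livers at day 1, 5.08, 4.58, 4.61, 5.08 and 5.09 at day 3, 4.91, 4.79, 4.76, 5.11 and 4.89 at day 7, and 5.14, 5.72, 5.60, 5.28 and 5.03 at day 21. The day 1 BDL arrays overlapped the shams by the third array, and those of the later days lay above them. The differences were 0.82 ± 0.21, 0.96 ± 0.25, 1.33 ± 0.20 and 1.79 ± 0.20 (adjusted p = 0.0102, 0.0112, 1.36e-05 and 7.78e-08). At days 1, 3 and 7 the means of both groups were under 5, where they cannot be told from background. The day 1 and day 3 calls were lost when 1 sham array was left out, with adjusted p of 0.0592 without the second sham of day 1 and of 0.0645 and 0.122 without the first and second of day 3. Within the 4 day 1 arrays that stand apart the day 1 difference was 0.48 (adjusted p = 0.288).

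Cx3cr1, the fractalkine receptor of patrolling monocytes and tissue macrophages, rose at days 7 and 21. Its shams ran from 5.63 to 6.27. It read 6.24, 5.89, 5.85, 5.83 and 6.28 in BDL livers at day 1, 6.67, 6.49, 6.44, 6.78 and 5.96 at day 3, 7.03, 6.69, 6.68, 6.90 and 6.88 at day 7, and 6.93, 7.45, 7.59, 7.65 and 7.66 at day 21. Day 1 arrays overlapped the shams and all arrays of days 7 and 21 lay above them. The differences were -0.06 ± 0.18, 0.61 ± 0.20, 0.79 ± 0.16 and 1.41 ± 0.16 (adjusted p = 0.878, 0.0541, 0.000813 and 1.9e-07). Cx3cr1 was the 1 member of 38 to change between day 7 and day 21 of ligation, rising by 0.62 ± 0.15 (adjusted p = 0.0474). Of all genes 0.864% changed between those days, 0.401% higher and 0.463% lower. That call was lost in 9 of 10 fits that left out 1 array (adjusted p up to 0.166). The day 7 effect exceeded the day 1 effect by 0.85 ± 0.24 (adjusted p = 0.0429), and without the 4 arrays by 0.56 (adjusted p = 0.461). That call was lost in 11 of 17 fits that left out 1 array (adjusted p up to 0.112) and without a filter (adjusted p = 0.0607). With all 9 shams as controls the day 3 difference was 0.45 (adjusted p = 0.0137).

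Cxcr4, the Cxcl12 receptor found on most leukocytes, read 5.51, 5.63 and 5.73 in shams of day 1, 5.93 and 6.44 at day 3, and 5.67, 5.75, 5.86 and 5.72 at day 7. After ligation it read 6.13, 6.06, 5.98, 6.04 and 6.28 at day 1, 6.40, 6.00, 5.92, 6.26 and 6.17 at day 3, 6.60, 6.56, 6.59, 6.37 and 6.74 at day 7, and 6.71, 6.44, 6.73, 6.76 and 6.57 at day 21. It stood above the shams on days 1, 7 and 21 and among them at day 3, where both shams were the highest of the 9. The differences were 0.48 ± 0.12, -0.04 ± 0.14, 0.82 ± 0.11 and 0.89 ± 0.11 (adjusted p = 0.00715, 0.92, 3.12e-06 and 4.27e-07). The day 1 adjusted p was 0.0546 without the first sham of day 1, 0.136 without the 4 arrays that stand apart and 0.137 within them. With all 9 shams as controls the day 3 difference turned to 0.35 (adjusted p = 0.0208) and that of day 1 was 0.29 (adjusted p = 0.0539).

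Cxcr2, the neutrophil receptor of Cxcl1, Cxcl2 and Cxcl5, read 6.04, 5.90 and 5.97 in day 1 shams, 4.85 and 5.70 at day 3, and 4.98, 6.05, 5.30 and 5.37 at day 7. After ligation it read 6.02, 6.28, 5.99, 6.34 and 6.67 at day 1, 5.57, 6.25, 6.22, 6.22 and 6.01 at day 3, 6.14, 6.34, 6.33, 6.44 and 6.32 at day 7, and 5.81, 6.10, 5.98, 6.45 and 5.82 at day 21. The day 1 shams lay above most shams of the later days. It was 0.29 ± 0.20 higher at day 1 (adjusted p = 0.4), 0.78 ± 0.23 at day 3 (adjusted p = 0.0295), 0.89 ± 0.19 at day 7 (adjusted p = 0.000887) and 0.61 ± 0.19 at day 21 (adjusted p = 0.0166). With all 9 shams the day 1 difference was 0.69 (adjusted p = 0.00421). Without the first sham of day 3 the day 3 difference was 0.36 (adjusted p = 0.572), and without the first sham of day 7 the day 21 adjusted p was 0.0924. The BDL arrays mattered too, with adjusted p of 0.0615 and 0.0625 at day 3 without the third or the fourth and of 0.0607 at day 21 without the fourth.

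Cxcr1, Cxcr3 and Ccr7 passed on no day. None of the 3 atypical receptors tested passed by limma either. Ackr2, which clears inflammatory CC chemokines, ran from 6.48 to 6.95 in shams and from 6.10 to 7.18 after ligation, with differences from -0.20 to 0.21. Ackr3, which takes up Cxcl12, differed by -0.13 to 0.14. Ackr1, carried by venular endothelium and red cells, lay between 4.26 and 5.32, mostly under 5, and was 0.31 ± 0.16 higher at day 1 (adjusted p = 0.22). The standard error of Ackr2 at day 1 was 0.15, so that small changes of it were not detectable with these arrays. Of the receptors, Ccr3, Ccr4, Ccr6, Ccr8, Ccr9, Ccr10, Cxcr6, Xcr1 and Ackr4 did not reach the minimum, nor did the ligands Ccl17, Ccl22, Ccl26, Cxcl3 and Cxcl15. The members just inside it were Xcl1 with 9 arrays above 5, Ccr1 and Ackr1 with 10 and Ccl20 with 12, and those just outside were Ccl1, Ccl22 and Ccr10 with 1 array each.

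**Figure D5:**
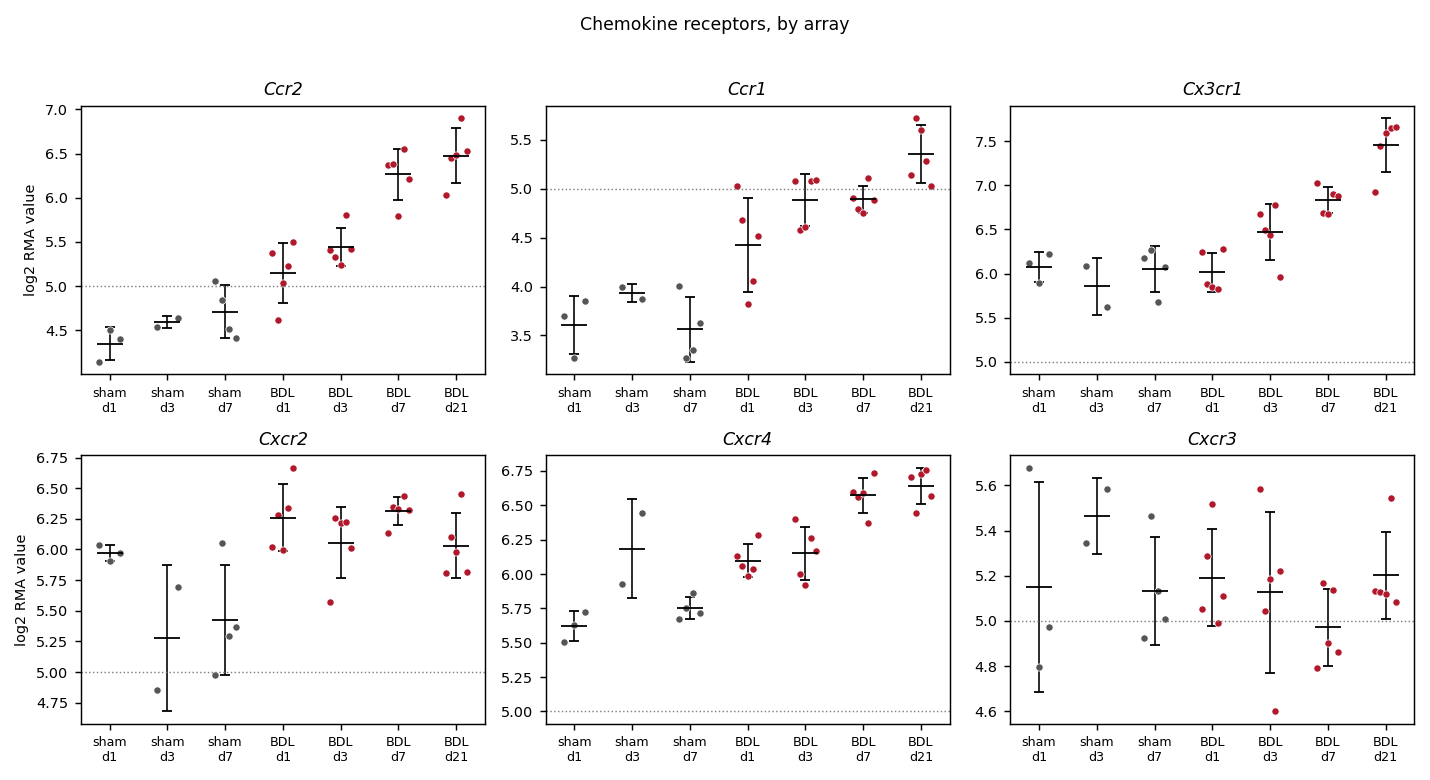
Log2 values (y axis) of chemokine receptors in each array by group (x axis), with sham in grey, BDL in red, bars for mean ± SD and a dotted line at 5. Ccr1 and Ccr2 climb from levels mostly under the dotted line in shams, Cx3cr1 reaches 6.93 to 7.66 at day 21, and Cxcr4 overlaps the shams at day 3.

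The markers of monocyte-derived macrophages moved over the same days as these receptors. The mean of that list ran from 5.45 to 5.89 in sham arrays and from 5.91 to 6.87, 6.88 to 7.40, 7.13 to 7.65 and 7.41 to 7.81 in BDL arrays of days 1, 3, 7 and 21, and all 13 of its genes were above the minimum. Their part in the rise of Ccr1, Ccr2 and Cx3cr1 was not tested. Among ligated livers, 4 members rose and 5 fell from day 1 to day 3, against 18.5% of all genes, 12% higher and 6.44% lower. Those that fell were Ccl2, Cxcl1, Cxcl2, Cxcl10 and Cxcl11, and those that rose were Ccl6, Ccl24, Cxcl16 and Cx3cr1. Of these, Cxcl11, Cxcl16 and Cx3cr1 each lost the call in 7 of 10 fits that left out 1 array. Ccl6 had an adjusted p of 0.0514 without the fifth BDL array of day 3 and of 0.0879 with day 1 limited to the 4 arrays. With a model term for the 4 arrays, the rise of Cxcl16 went from 0.57 to 0.20 (adjusted p = 0.449). That of Cx3cr1 went from 0.45 to 0.43 (adjusted p = 0.114). Without the 4 arrays these rises were 0.21 and 0.35. The fall of Cxcl11 went from -0.70 to -0.43 with day 1 limited to the 4 arrays (adjusted p = 0.332) and was -0.88 without them. In the fits so limited, the difference of the 4 arrays and the day cannot be told apart. From day 3 to day 7, 6 changed, all upward, against 5.69% of all genes, 4.6% higher and 1.1% lower. They were Ccl2, Ccl3, Cxcl9, Cxcl16, Ccr2 and Cxcr4, of which Ccl3 lost the call in 6 of 10 such fits and Cxcr4 in 2. Among shams, 0 members differed between day 1 and day 7 by limma, against 4.11% of all genes, 1.15% higher and 2.96% lower. At an unadjusted p under 0.05 there were 6, and the lowest adjusted p was 0.102. With the day 1 shams limited to those among the 4 arrays that stand apart, 2 members passed. The day 7 shams are all outside the 4, so there the difference of those arrays and the day cannot be told apart.

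Genes that serve chemokine signalling under other names were higher too at the later days. Of 35 listed, 29 were tested. At day 1, 2 of the 29 rose, while 8.52% of all genes did. They were the guanine exchange partner Elmo1 (0.55 ± 0.16, adjusted p = 0.017) and the Src-family kinase Fgr (0.75 ± 0.21, adjusted p = 0.017). At day 3, 10 rose and 1 fell, Rgs16 (-2.12 ± 0.69, adjusted p = 0.047), a brake on G proteins. Of all genes 6.47% rose and 3.69% fell on that day. At day 7, 18 changed and at day 21, 20, all upward, with the shares of all genes as given above. The median log2 difference of the list was 0.15, 0.36, 0.73 and 0.82 on the 4 days. Itgb2, the integrin chain that arrests leukocytes after chemokine contact, was 1.78 ± 0.22 higher at day 7 and 1.92 ± 0.22 at day 21. The haematopoietic signalling genes Vav1 (1.18 and 1.34) and Rac2 (1.03 and 1.20) rose on both days, as did Gnai2, the inhibitory G protein that these receptors use (0.75 and 0.88), and the arrestin Arrb2 (0.57 and 0.78). Adam10, the protease that releases Cx3cl1 and Cxcl16 from the membrane, was 0.76 higher at day 7 and 0.95 at day 21. Ppbp, a platelet chemokine, differed by 0.04 and 0.03. Many of these genes are used by all leukocytes, and the macrophage markers above moved over the same days. The part of leukocyte number in these changes was not tested.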

How the data were processed

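RNA of 29 whole mouse livers was hybridised to Affymetrix arrays. The deposited values are on the log2 scale, normalised by the authors with RMA in oligo 1.52.0, as the submitters' processing notes list. This method subtracts background, equalises the arrays' distributions and summarises probes, so it compresses low values. Per the labels' protocols the array was Mouse Genome 430 2.0, but the rows bear identifiers of Mouse Gene 2.0 ST, whose annotation was used. No source used here gives its genome build. Of 41345 rows, 23521 carry 1 symbol, 1814 several and 16010 none. Symbols were updated through RefSeq for 23328 rows, and the row with the highest mean stood for each of 22180 genes. No column was without a sample.

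The 14699 genes above log2 5 in at least 3 arrays were fitted with limma 3.58.1 in R 4.3.3 (1 mean per group over all 29 arrays, eBayes). Every adjusted p is limma's with Benjamini-Hochberg adjustment over those genes, called under 0.05, and errors are standard errors of the log2 difference. Replicate numbers follow deposit order, and the animal numbers in the titles differ, so the p-values rest on variation among animals. A group mean under 5 was treated as not distinguishable from background. Members of each functional group are all accounted for. Values by array were given for ligands and receptors of a fixed list and for any other member called between BDL and sham. The members and lists were chosen with earlier results of these data known. The script was tested on simulated data. Alternatives changed the filter, the row choice, the scaling (cyclic loess), the variance model, the arrays in the fit, the controls, the 4 day 1 arrays and each replicate. No probe signals were used, so the number of arrays limits the precision.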

Additional observations from a re-analysis of the deposited data

Results flagged for a closer look

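In 155 groups of 4 or 5 arrays of 31 members, 3 held an array far from the others, and chance gives about 1 in 20 such groups. The fifth BDL array of day 3 had the lowest Ccl9, at 10.46 against 10.93 for the next. The first sham array of day 7 had the highest Cxcl9, at 8.575 against 7.425. The fourth BDL array of day 21 had the highest Cxcr3, at 5.546 against 5.132.

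The effect of ligation differed between day 7 and day 1 for 2 of 38 tested members by limma's interaction test. Of all tested genes 4.33% differed so, 3.48% upward and 0.857% downward. For Ccl24, the macrophage-made eosinophil attractant, it was 1.36 ± 0.31 (SE) log2 units larger at day 7 (adjusted p = 0.0114), with adjusted p of 0.0568 without the 4 day 1 arrays that stand apart and 0.0966 within them. For Cx3cr1, the fractalkine receptor, it was 0.85 ± 0.24 larger (adjusted p = 0.0429), a call lost in 11 of 17 fits that left out 1 array (adjusted p up to 0.112) and without the 4 arrays (0.56, adjusted p = 0.461).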

How the results depend on the processing

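No paired analysis was possible because the labels give no replicate numbers shared between groups. The number of changed members at day 1, 14 in all, was 8 with only the day 1 groups in the fit, 7 without the 4 arrays that stand apart, 6 within them and 12 to 14 with 1 array left out. The within-4 alternative was chosen after seeing the data. It limits day 1 to the 4 arrays and keeps all arrays of other days. In comparisons between days, the difference of the 4 arrays and the day therefore cannot be told apart. Without the 4 arrays, 1 sham array of day 1 remains and is assumed to vary like the other groups. At day 3 the count of 8 became 13 with all 9 shams as controls and 3 to 9 with 1 array left out. With 9 shams, Cxcr4 at day 3 turned from -0.04 to 0.35, the only change of direction past the threshold among 31 named members. Leaving out 1 array gave 16 to 18 at day 7 (18 in all), 15 to 18 at day 21 (17), 6 to 9 from day 1 to day 3 (9), 4 to 9 from day 3 to day 7 (6), 0 to 1 from day 7 to day 21 (1), 0 to 2 between shams (0) and 1 to 4 for the day 7 against day 1 effect (2). From day 1 to day 3 the count of 9 was 5 with only those groups. From day 7 to day 21 the count of 1 was 0 without a filter, 0 with log2 above 6 and 2 with only those groups. Between shams it was 2 with day 1 limited to the 4 arrays. For the day 7 against day 1 effect the count of 2 was 1 without a filter, 5 with a model term for the 4 arrays and 1 without the 4 arrays. Other alternatives kept each count within 1.5 times the reported one. Of 4804 values of named members over all settings, 4599 kept their direction and side of the threshold. Values under log2 5 lie near background, where RMA narrows differences.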
